A study of Mus musculus with 18 samples.

Results

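The genes described here encode 8 surface receptors of the leukocyte immunoglobulin-like B, CD200 receptor, CD300 and C-type lectin families: Lilrb4a, Pirb, Cd200r1, Cd200r3, Cd200r4, Cd300a, Cd300lf and Clec12a. They were chosen as inhibitory or paired receptors of myeloid cells, with earlier results of these data known, and matched to the table by symbol. Counts of called receptors, set below beside the shares over all genes, are therefore descriptions and not a test of the set. All 8 of them were found among its 56413 rows, and all 8 were among the 14076 genes that passed the filter on low counts. RNA of each receptor was counted in 18 bulk libraries of mouse basophils, the rare granulocytes that carry IgE on the high-affinity IgE receptor.

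The cells were grown from mouse bone marrow with interleukin-3 (0.3 ng/mL) for 7 days. All groups received IgE against the hapten TNP (1 µg/mL) on day 6 and magnetic enrichment for CD49b, with 50000 cells per sample. The bone marrow was from wild-type (WT) mice or from mice labelled TTP-KO. TTP is tristetraprolin, the product of Zfp36, an RNA-binding protein that recognises AU-rich elements and promotes mRNA decay. The 6 groups of 3 libraries each were WT and TTP-KO cells given plain ovalbumin (control OVA) for 2 h, TNP-OVA for 2 h or TNP-OVA for 4 h, at 10 ng/mL. A control was collected at 2 h only, so the 4 h groups were set against it. Whether replicate libraries stem from different mice or cultures is not stated, so the p-values cover only their spread, which could be technical.

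Inhibitory receptors of this kind carry tyrosine motifs in their cytoplasmic tails that recruit phosphatases such as Ptpn6 and Inpp5d and dampen signals from activating receptors, including the IgE receptor. Paired receptors are close relatives with opposite tails: the activating partner has a short tail and signals through an adaptor such as Tyrobp. Lilrb4a (gp49B), Pirb, Cd300a, Cd300lf and Clec12a carry inhibitory motifs. Cd200r1 is inhibitory through the adaptor Dok2, while Cd200r3 and Cd200r4 are activating relatives that associate with Tyrobp, and Cd200r3 is a surface marker of mouse basophils.

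Library totals ran from 5516580 to 12733172 estimated counts. Basophil markers were abundant in every group, with a summed level of 23879 to 32467 CPM (counts relative to the library total, scaled by TMM) over 10 genes. Sums of 4 eosinophil markers overlapped in control (102 to 145 CPM in WT, 135 to 153 in TTP-KO), and none was called between genotypes. Markers of several other cell types differed between genotypes. The sum of 9 neutrophil markers was 1101 to 1270 CPM in WT control against 1653 to 1985 CPM in TTP-KO control. That of 11 monocyte and macrophage markers was 7565 to 7668 against 8704 to 8927 CPM. Lyz2 made up most of the latter (5929 ± 86.3 against 7044 ± 140 CPM), while Ccr2 was called lower in TTP-KO (-0.45 ± 0.07). Of these 11 markers, 3 were called higher and 1 lower in control, with a median of 0.04. B cell markers (5 genes) were 56.3 to 60.8 against 22.3 to 29.0 CPM, and mast cell markers (6 genes, of which Mcpt4 and Mrgprb2 were below 1 CPM) 202 to 218 against 119 to 128 CPM, lower in TTP-KO in all 3 conditions. Dendritic cell markers (8 genes, of which Flt3, Xcr1, Siglech and Cd209a were below 1 CPM) summed to 978 to 1023 against 565 to 603 CPM. Nearly all of that sum was the MHC class II genes H2-Ab1 (631 ± 15.3 against 377 ± 16.8 CPM) and H2-Eb1 (360 ± 7.24 against 197 ± 6.11 CPM), which B cells also express. Their part in the receptor results was not tested, and in bulk RNA fewer cells of a type and less RNA per cell cannot be told apart. Zfp36 RNA did not fall in TTP-KO libraries. It was 224, 239 and 247 CPM in WT control and 219, 228 and 225 CPM in TTP-KO control, and at 2 h it was 1.26-fold higher in TTP-KO (edgeR adjusted p = 3.16e-04). Which part of Zfp36 the allele changes is not stated, so this RNA does not check the genotype, and TTP-KO here means libraries so labelled.

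Since the genotype concerns a protein that binds AU-rich elements, the 3′ UTRs of the 8 receptors were searched on the transcript strand for the pentamer ATTTA and the heptamer TATTTAT, which contains it. The transcripts were those of GENCODE M21 (GRCm38). Of the 3′ UTRs of 21022 protein-coding genes, with a median length of 848 bases, 62.8% held the pentamer and 26.1% the heptamer. The heptamer was present in Pirb, Cd300a and Cd300lf. Their sites are shown, with the heptamer in capitals and 10 bases on each side:
Pirb, 820 bases after the stop codon: ggatatatttTATTTATgtgtagtatg
Cd300a, 660 bases after the stop codon: aaaaaaagatTATTTATttattatatg
Cd300a, 664 bases after the stop codon: aaagattattTATTTATtatatgtaag
Cd300a, 1114 bases after the stop codon: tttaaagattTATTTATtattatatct
Cd300lf, 283 bases after the stop codon: aatcaaccttTATTTATtgtttttcat
The Cd300a sites at 660 and 664 overlap, and its 3′ UTR was the longest of the 8 (3364 bases, with 10 pentamers). The pentamer occurred 5 times in Cd200r1, 3 times in Cd200r4, 2 times each in Pirb and Cd300lf and 1 time each in Lilrb4a and Cd200r3. Clec12a held neither motif in 1241 bases. A match is a description of the letters, not a measured binding site.

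The receptors differed widely in abundance. Per kilobase of the GENCODE M21 transcript, Lilrb4a was at 2141 ± 41.2 CPM per kb in WT control (SD, n = 3), followed by Cd200r3 at 541 ± 21.4 and Cd200r4 at 109 ± 5.02. Cd200r1 (68.4 ± 2.61), Pirb (46.6 ± 1.29) and Clec12a (38.0 ± 1.24) came next. Cd300a (22.4 ± 2.12) and Cd300lf (21.3 ± 2.02) were lowest and overlapped within their SDs. At 4 h in WT, Cd300lf was at 39.6 ± 2.08 CPM per kb, above Clec12a (26.9 ± 1.42) and Cd300a (17.2 ± 0.919). Per kilobase, the order of these 3 genes was thus not the same as in control. This order depends on the length of the 1 transcript used for each gene. In CPM, the mean of Cd300a was above that of Cd300lf in WT control (104 ± 9.82 against 39.7 ± 3.75) and at 4 h (79.9 ± 4.30 against 73.8 ± 3.88).

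**Figure D1:**
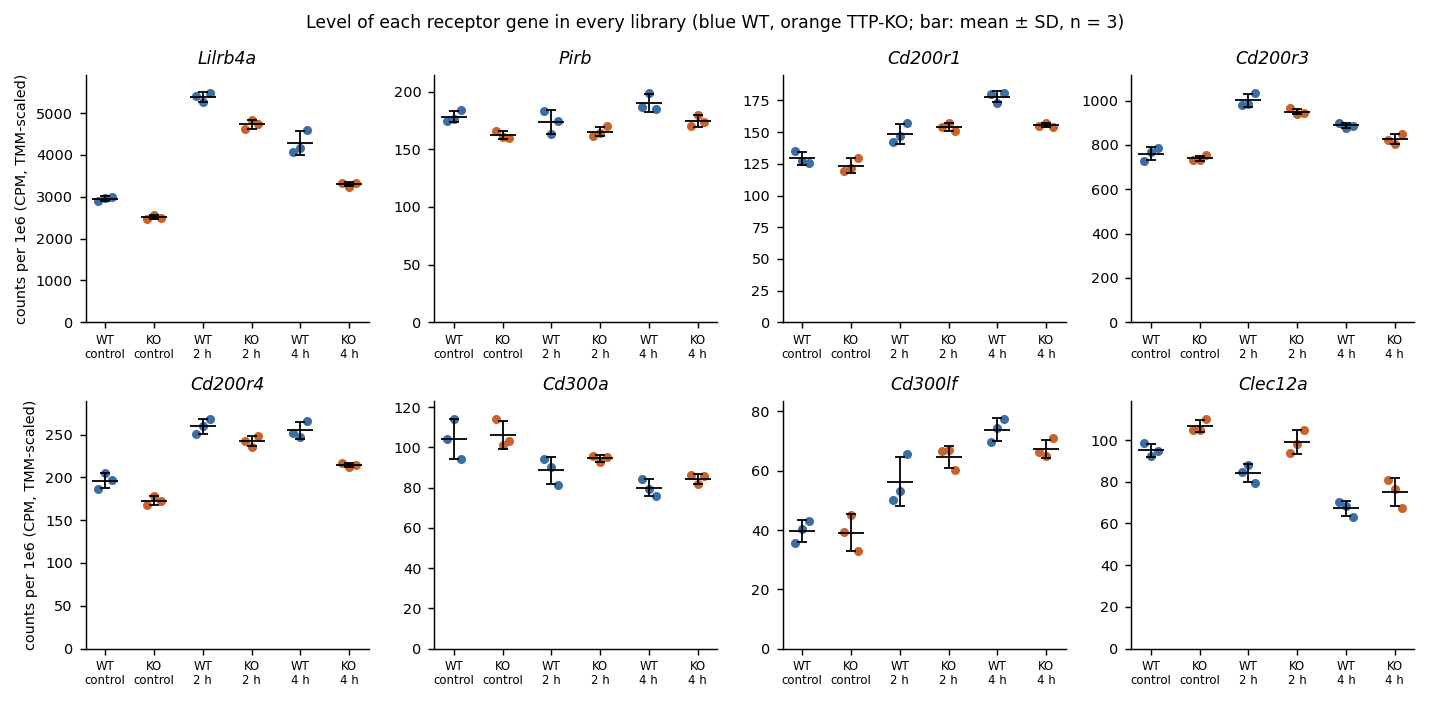
TMM-scaled counts relative to the library total (CPM) (y axis, linear, from 0) of each of the 8 receptor genes in all 18 libraries, by group (x axis; blue WT, orange TTP-KO), with the mean and SD of 3 libraries in black. Lilrb4a spans 2479 to 5482 CPM, and its 3 TTP-KO libraries lie below the 3 WT libraries in each condition.

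Antigen changed most of the receptors in WT cells, and in both directions. At 2 h over control, 5 of 8 were higher and 2 of 8 lower, where 17.8% and 17.3% of all tested genes were called. At 4 h, 5 of 8 were again higher and 2 of 8 lower, beside 19.6% and 18.4% of all genes. The median log2 fold change of the 8 was 0.30 at both times, against -0.05 and -0.01 over all tested genes. Calls are at an adjusted p under 0.05 in edgeR's quasi-likelihood test. Changes were below 2-fold for every receptor. The 2 h and 4 h comparisons share the control libraries, so their values are set side by side and are not independent.

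Lilrb4a, an inhibitory receptor that limits mast cell and myeloid activation, was the most abundant of the 8 and rose with antigen. WT control libraries held 2893, 2973 and 3003 CPM, WT 2 h libraries 5400, 5257 and 5482, and WT 4 h libraries 4063, 4176 and 4602. Every antigen library lay above every control library, and the 4 h libraries lay below the 2 h libraries. The rise was 1.82-fold at 2 h (log2 0.86 ± 0.04 SE, edgeR adjusted p = 1.14e-17) and 1.45-fold at 4 h (log2 0.53 ± 0.04, adjusted p = 9.98e-13). In TTP-KO cells control libraries held 2479, 2566 and 2487 CPM, 2 h libraries 4621, 4827 and 4743, and 4 h libraries 3319, 3241 and 3323. The groups again did not overlap, with log2 changes of 0.91 ± 0.04 at 2 h and 0.39 ± 0.04 at 4 h.

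The 3 CD200 receptor genes, which lie near each other on chromosome 16, all rose in both genotypes. Cd200r3 held 727, 770 and 785 CPM in WT control, 982, 985 and 1035 at 2 h and 901, 877 and 886 at 4 h. It was highest at 2 h, and the 3 groups did not overlap. The log2 change was 0.40 ± 0.04 at 2 h (edgeR adjusted p = 5.38e-10) and 0.22 ± 0.04 at 4 h (adjusted p = 1.24e-05), and in TTP-KO it was 0.36 ± 0.04 and 0.16 ± 0.04, both called. Cd200r4 held 187, 205 and 197 CPM in WT control, 251, 260 and 268 at 2 h and 252, 247 and 266 at 4 h. Its antigen libraries lay above the control libraries and the 2 times overlapped. The log2 change was 0.40 ± 0.05 and 0.38 ± 0.05 in WT, and 0.49 ± 0.05 and 0.31 ± 0.05 in TTP-KO, all called.

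Cd200r1, the inhibitory receptor for CD200, was at 135, 127 and 126 CPM in WT control, 142, 147 and 157 at 2 h and 180, 173 and 181 at 4 h. Unlike the activating Cd200r3, its level was highest at 4 h in WT, with no overlap between the 3 groups. The log2 change was 0.20 ± 0.05 at 2 h (edgeR adjusted p = 0.00215) and 0.46 ± 0.05 at 4 h (adjusted p = 1.23e-08). In TTP-KO, control libraries held 119, 122 and 130 CPM, 2 h libraries 154, 157 and 151 and 4 h libraries 155, 157 and 154. The TTP-KO antigen groups overlapped each other and lay above control, with log2 changes of 0.32 ± 0.05 and 0.33 ± 0.05.

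Cd300lf and Cd300a, inhibitory receptors of the same chromosome 11 cluster that bind lipids of dying cells, moved in opposite directions. Cd300lf held 35.6, 40.5 and 43.0 CPM in WT control, 50.2, 53.1 and 65.6 at 2 h and 69.7, 74.3 and 77.4 at 4 h. It rose without overlap between the 3 groups, by 0.51 ± 0.11 at 2 h (log2, edgeR adjusted p = 4.29e-04) and 0.89 ± 0.10 at 4 h (adjusted p = 9.07e-08), a 1.86-fold rise. In TTP-KO the log2 changes were 0.73 ± 0.10 and 0.79 ± 0.10. The sum of Cd300lf and its more abundant relative Cd300ld, which share some sequence, changed by 0.27 and 0.54 in WT, both called. Cd300a held 104, 114 and 94.3 CPM in WT control, 94.4, 90.0 and 81.1 at 2 h and 84.4, 79.5 and 75.9 at 4 h. Its 2 h range overlapped control slightly and its 4 h range lay below control. It fell by 0.23 ± 0.07 on the log2 scale at 2 h and by 0.37 ± 0.07 at 4 h (edgeR adjusted p = 0.0105 and 5.84e-05). The 2 h call was lost without WT control replicate 2 (adjusted p = 0.0954), without WT 2 h replicate 3 (0.0947) and in a fit of the compared groups alone (0.0645). In TTP-KO the change was -0.16 ± 0.07 at 2 h, which did not pass (adjusted p = 0.0647), and -0.33 ± 0.07 at 4 h, which did. The 2 h change passed with the replicate number as a block (adjusted p = 0.0474) and without WT control replicate 3 (0.0391), TTP-KO control replicate 2 (0.0470) or WT 2 h replicate 3 (0.0462).

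Clec12a, an inhibitory C-type lectin receptor of myeloid cells, was the other gene that fell. WT control libraries held 98.4, 92.2 and 94.8 CPM, 2 h libraries 84.8, 88.2 and 79.5 and 4 h libraries 70.1, 68.5 and 63.3. The groups did not overlap, and the level was lowest at 4 h. It fell by 0.50 ± 0.07 on the log2 scale at 4 h in WT (edgeR adjusted p = 5.40e-07) and by 0.51 ± 0.07 in TTP-KO. The 2 h fall of 0.18 ± 0.07 in WT was marginal (adjusted p = 0.0407). It did not pass under RLE scaling (0.0773), in DESeq2 (0.132), in a fit of the compared groups alone (0.113), or with any 1 of 6 libraries left out (adjusted p up to 0.184, without WT 2 h replicate 3): WT control 1 and 3, WT 2 h 1 and 3, TTP-KO 2 h 2 and WT 4 h 2. Over the same contrast at 4 h in WT, 5 of 9 neutrophil markers fell and none rose. Of 11 monocyte and macrophage markers, 3 fell and 2 rose, with a median of -0.06 on the log2 scale. Of 10 basophil markers, 7 fell and 3 rose, with a median of -0.39. Over all genes, 18.4% were called lower and 19.6% higher. The part of any of these cells in the fall of Clec12a was not tested.

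Pirb, the receptor for MHC class I molecules, did not pass the test against control at either time in either genotype. It was at 175, 176 and 184 CPM in WT control, 183, 163 and 175 at 2 h and 187, 199 and 185 at 4 h. The 2 h range overlapped the control range, and the 4 h range lay just above it. The log2 changes were -0.04 ± 0.05 and 0.09 ± 0.05 (edgeR adjusted p = 0.589 and 0.135).

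**Figure D2:**
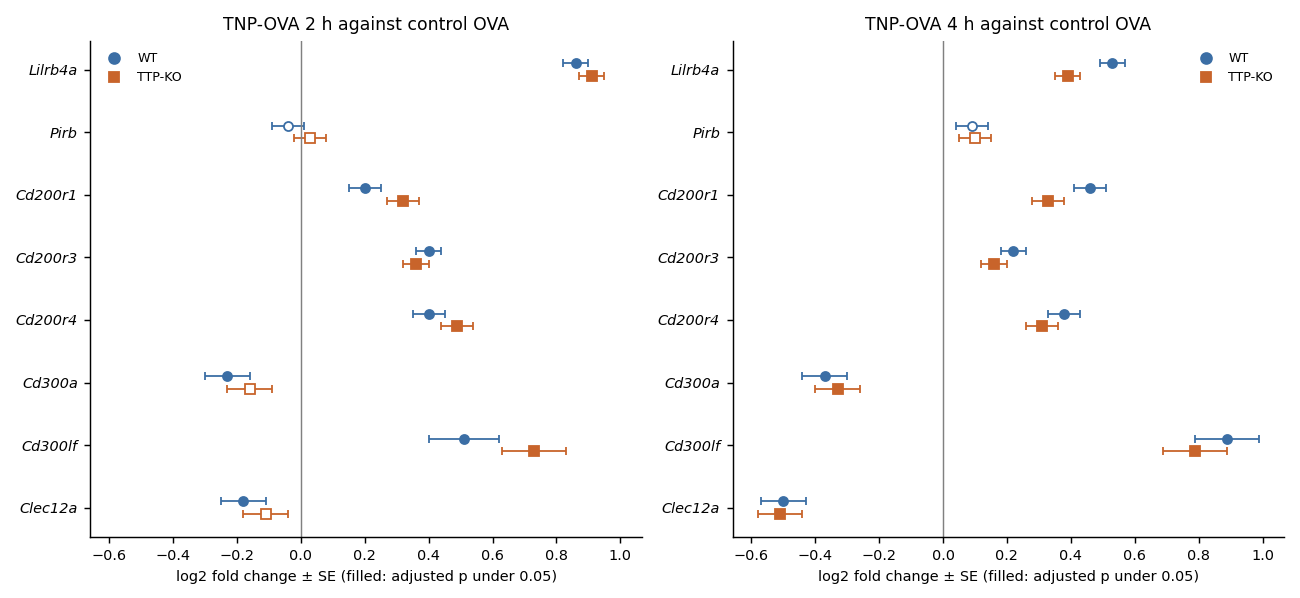
Log2 fold change (x axis, with SE) of each receptor gene (y axis) after TNP-OVA for 2 h (left) or 4 h (right) against control OVA, in WT (blue circles) and TTP-KO (orange squares); filled symbols passed an adjusted p of 0.05. Lilrb4a, the 3 Cd200r genes and Cd300lf lie right of 0 in all 4 comparisons, Cd300a and Clec12a lie left of 0, and Pirb is not filled in any.

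In TTP-KO cells antigen called 5 of 8 receptors higher at 2 h and none lower, beside 17.8% and 16.6% of all genes. At 4 h it called 5 higher and 2 lower, beside 18.3% and 16.7%. The genes called higher were Lilrb4a, Cd200r1, Cd200r3, Cd200r4 and Cd300lf in each of the 4 antigen comparisons. From 2 h to 4 h, WT cells showed 3 receptors higher and 3 lower, where 15.2% and 15.9% of genes were called. Lilrb4a (-0.33 ± 0.04), Cd200r3 (-0.17 ± 0.04) and Clec12a (-0.32 ± 0.07) fell in that interval. Cd200r1 (0.26 ± 0.05), Cd300lf (0.39 ± 0.10) and Pirb (0.13 ± 0.05, adjusted p = 0.0383) rose. The Cd300lf call was lost without WT 2 h replicate 1 (log2 0.28, edgeR adjusted p = 0.0533). The Pirb call was lost under RLE scaling (adjusted p = 0.0885), in DESeq2 (0.119), in a fit of the compared groups alone (0.0710) and without WT 2 h replicates 2 or 3, TTP-KO 2 h replicates 2 or 3 or WT 4 h replicate 2, up to 0.329 without the last.

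TTP-KO cells showed 0 of 8 higher and 4 lower over the same interval, beside 14.6% and 16.2% of all genes. Lilrb4a (-0.52 ± 0.04), Cd200r3 (-0.20 ± 0.04), Cd200r4 (-0.18 ± 0.05) and Clec12a (-0.40 ± 0.07) fell, and 5 of 8 had an unadjusted p under 0.05, beside 39.8% of all genes. The Cd200r4 call was lost when no filter on low counts was used (log2 -0.14, adjusted p = 0.0892). Cd200r1 (0.01 ± 0.05) and Cd300lf (0.06 ± 0.10), which rose in WT in this interval, did not pass in TTP-KO. The sum of Cd300lf and Cd300ld was higher at 4 h than at 2 h in TTP-KO (log2 0.27, adjusted p = 8.17e-04), but Cd300ld is the larger part of it and rose on its own, from 94.6 ± 11.2 to 125 ± 1.13 CPM (SD, n = 3).

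Between genotypes the receptors that passed were all lower in TTP-KO. In control, 2 of 8 were lower and none higher, beside 1.24% and 0.412% of all genes. At 2 h, 1 was lower and none higher, beside 1.88% and 0.909%. At 4 h, 3 were lower and none higher, beside 3.40% and 1.83%. The medians over the 8 receptors were -0.05, -0.01 and -0.13 on the log2 scale, against -0.00, 0.00 and 0.01 over all tested genes. In edgeR, 4, 3 and 6 of the 8 had an unadjusted p under 0.05. Each of these counts included Clec12a, which was higher in TTP-KO, while the other receptors counted were lower. Of all 14076 tested genes, 1810, 2095 and 2397 had an unadjusted p under 0.05 in either direction (12.9% and 14.9% in control and at 2 h). Basophil markers moved the same way at 4 h: 5 of 10 were called lower in TTP-KO and none higher, with a median of -0.15, and their part in the receptor values was not tested. Clec12a was on the higher side in all 3 conditions. Cd300a was also above 0 in each, but its TTP-KO and WT ranges overlapped in all 3. Its control value of 0.03 ± 0.07 turned negative without WT control replicate 3 (-0.04) or TTP-KO control replicate 1 (-0.02).

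Lilrb4a was lower in TTP-KO in every condition, and in each the 3 TTP-KO libraries lay below the 3 WT libraries given above. The log2 difference was -0.24 ± 0.04 in control (1.18-fold lower, edgeR adjusted p = 2.20e-04). At 2 h it was -0.19 ± 0.04 (1.14-fold lower, adjusted p = 0.00263), and at 4 h -0.38 ± 0.04 (adjusted p = 3.22e-08). This was the only receptor called in all 3 conditions, and the call held in each under every alternative run. The difference was thus seen in the control libraries as well as after antigen.

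Cd200r4 was lower in TTP-KO in control and at 4 h. Its TTP-KO libraries held 168, 178 and 172 CPM in control, 243, 236 and 248 at 2 h and 217, 212 and 215 at 4 h. These lay below all WT libraries in each condition. The log2 difference was -0.18 ± 0.05 in control (edgeR adjusted p = 0.0340). At 2 h it was -0.10 ± 0.05 (adjusted p = 0.304), and later, at 4 h, -0.25 ± 0.05 (adjusted p = 5.94e-04). The control call was lost in 2 other fits (0.101 with no filter on low counts, 0.124 with only the compared groups) and without WT control replicate 2 or 3 or any 1 of the 3 TTP-KO control libraries (adjusted p from 0.0510 to 0.172).

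Cd200r1 was lower in TTP-KO at 4 h, at -0.20 ± 0.05 (1.15-fold, edgeR adjusted p = 0.0132). There the TTP-KO libraries, at 155, 157 and 154 CPM, lay below the WT libraries, at 180, 173 and 181. In control (-0.06 ± 0.05) and at 2 h (0.05 ± 0.05) it did not pass. The 4 h adjusted p rose to 0.0570 without WT 4 h replicate 1, 0.0639 without WT 4 h replicate 3 and 0.0604 without TTP-KO 4 h replicate 3. Cd200r3, the activating receptor, differed by -0.04 ± 0.04, -0.07 ± 0.04 and -0.10 ± 0.04 and did not pass. Its 4 h difference passed in DESeq2 (adjusted p = 0.0354).

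Pirb differed by -0.14 ± 0.05 in control, -0.07 ± 0.05 at 2 h and -0.13 ± 0.05 at 4 h (edgeR adjusted p = 0.185, 0.571 and 0.144). Counted together with its near copies, it passed in control (log2 -0.18, adjusted p = 0.0349) and at 4 h (-0.16, adjusted p = 0.0390). Cd300a (0.03 to 0.10) and Cd300lf (-0.13 to 0.20) passed in no condition. Clec12a libraries of TTP-KO held 105, 105 and 110 CPM in control and 94.0, 98.2 and 105 at 2 h, above all WT libraries of the same conditions. At 4 h they held 80.6, 76.7 and 67.6 CPM and overlapped WT. Its log2 differences were 0.17 ± 0.07, 0.24 ± 0.07 and 0.16 ± 0.07 (adjusted p = 0.237, 0.0575 and 0.214), and the 2 h difference passed only without TTP-KO 4 h replicate 3 (adjusted p = 0.0370). At 2 h the neutrophil marker sum was 1903 to 2285 CPM in TTP-KO against 1046 to 1342 in WT, with 6 of 9 called higher and none lower. The monocyte and macrophage sum was 9183 to 9311 against 7307 to 7914 CPM, mostly Lyz2 (7284 ± 24.9 against 5823 ± 287 CPM), with 4 of 11 called higher, Ccr2 lower (-0.51 ± 0.07) and a median of 0.06. Their part in the Clec12a values was not tested.

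**Figure D3:**
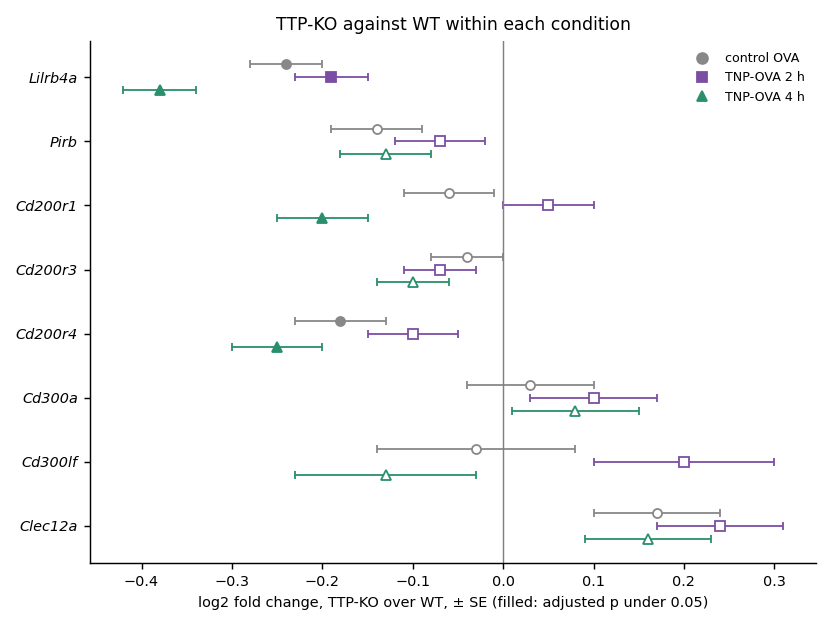
Log2 fold change of TTP-KO over WT (x axis, with SE) of each receptor gene (y axis) in control OVA (grey circles), TNP-OVA 2 h (purple squares) and TNP-OVA 4 h (green triangles); filled symbols passed an adjusted p of 0.05. The filled symbols, 3 for Lilrb4a, 2 for Cd200r4 and 1 for Cd200r1, all lie left of 0, and Clec12a lies right of 0 in each condition.

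The interaction terms asked whether the response to antigen differed between genotypes. For the 2 h response no receptor passed in edgeR, beside 0.0355% of all genes called higher and 0.0142% lower, and none had an unadjusted p under 0.05 (6.61% of all genes). For the 4 h response none passed, beside 0.277% and 0.412%, and 1 had an unadjusted p under 0.05 (10.6% of all genes): Lilrb4a, at -0.14 ± 0.05 (edgeR adjusted p = 0.266). For the change from 2 h to 4 h none passed, beside 0.0924% and 0.220%, and 4 had an unadjusted p under 0.05, all negative, as did 9.13% of all tested genes in either direction. These were Lilrb4a (-0.19 ± 0.05, edgeR adjusted p = 0.116), Cd200r1 (-0.25 ± 0.07, 0.169), Cd200r4 (-0.15 ± 0.06, 0.465) and Cd300lf (-0.33 ± 0.14, 0.470). The Lilrb4a interaction passed in DESeq2 (adjusted p = 0.0471) and without WT 4 h replicate 1 (0.0330). In DESeq2 the receptors called were 0, 0 and 1 for these 3 terms.

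Lilrb4a has near copies, which limits how its reads can be assigned. Its transcript of 1381 bases gave 1332 windows of 50 bases, of which 100% also occur in Gm49339, a gene model that reads through the neighbouring Lilrb4b (named Lilr4b in RefSeq) and Lilrb4a, and 27.8% also occur in Lilrb4b. Gm49339 was examined after its values were seen. Lilrb4b was at 2748 ± 55.8 CPM in WT control and 2283 ± 29.9 in TTP-KO control, 4075 ± 85.4 and 3563 ± 86.2 at 2 h, and 3292 ± 154 and 2671 ± 32.3 at 4 h (SD, n = 3). It was called lower in TTP-KO in all 3 conditions (log2 -0.27 ± 0.03, -0.19 ± 0.03 and -0.30 ± 0.03) and higher in WT at 2 h (0.57 ± 0.03).

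Gm49339 was at 349 ± 1.61 CPM in WT control and 257 ± 22.3 in TTP-KO control, and it passed no test between genotypes (log2 -0.44 ± 0.13, -0.32 ± 0.13 and -0.24 ± 0.13, edgeR adjusted p from 0.148 to 0.405). Of the counts given to Lilrb4a and Lilrb4b together, Lilrb4a held 51.8% ± 0.0514 in WT control and 52.4% ± 0.207 in TTP-KO control. Its share was 56.9% ± 0.441 and 57.0% ± 0.782 at 2 h and 56.5% ± 0.527 and 55.2% ± 0.274 at 4 h. With the 3 genes summed, the genotype differences were -0.26, -0.19 and -0.34 on the log2 scale, and the WT antigen changes were 0.70 at 2 h and 0.38 at 4 h, all still called.

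**Figure D4:**
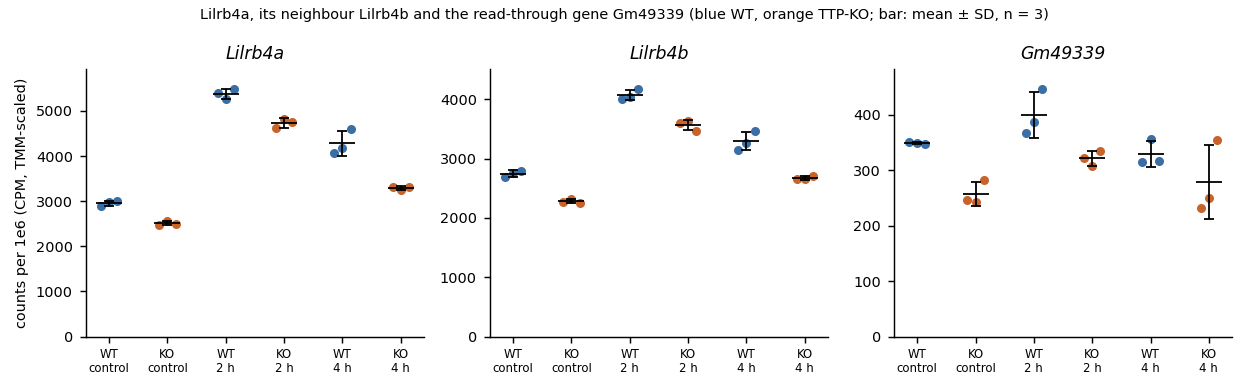
TMM-scaled counts relative to the library total (CPM) (y axis, linear, from 0, own scale in each panel) of Lilrb4a, Lilrb4b and the read-through gene model Gm49339 in every library by group (x axis; blue WT, orange TTP-KO), with the mean and SD of 3 libraries. For Lilrb4a and Lilrb4b the TTP-KO libraries lie below the WT libraries in every condition, while the Gm49339 groups overlap at 4 h.

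Near copies also touch Pirb, of whose windows 37.3% occur in another gene, with Pira12 (21.7%) and Pira2 (20.7%) leading. The Pira genes encode the activating partners of Pirb. Shared windows made up 6.5% of Cd300lf, 5.78% of Cd200r4, 3.31% of Cd300a and 2.17% of Cd200r1, and none of Cd200r3 or Clec12a. These shares, and that of Pirb, count windows found in any other gene, also in genes outside the receptor families. The largest share with a single relative was 5.23% for Cd300lf (Cd300ld), 3.49% for Cd200r4 (Cd200r2) and 1.98% for Cd300a (Cd300c2).

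Over the 18 libraries, which include the antigen groups, Lilrb4a varied most like Cd200r3 (Pearson r = 0.97) and Cd200r4 (0.95) among the receptors, and Cd200r3 like Cd200r4 (0.92). Cd300a and Clec12a varied together (0.83), and Cd300a ran opposite to Cd200r1 (-0.87) and Cd300lf (-0.85). These correlations of log2 CPM describe 18 libraries that share their groups and depth, and carry no test. Among other named genes, those most like each receptor were F2rl2 (0.991) and Nras (0.985) for Lilrb4a, and Slc7a5 (0.986) and Nras (0.984) for Cd200r3. For Cd200r4 they were Upp1 (0.977) and Myo1d (0.970), for Cd200r1 Nek6 (0.960) and Rpl7l1 (0.953), and for Cd300lf Sra1 (0.949) and Il1bos (0.940). Clec12a was nearest to Ctsg (0.952) and Ctsh (0.944), which encode proteases of granules and lysosomes. Cd300a was nearest to Wbp1 (0.925) and Pip5k1b (0.921). Pirb had the lowest values, with Fcrl2 (0.852) and Ccl22 (0.834).

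Because Cd200r3 and Cd200r4 are relatives on chromosome 16 that rose together, their promoters are shown, from 250 bases before to 50 bases after the RefSeq start site (GRCm38.p6). Capitals mark matches, on either strand, to the GATA motif AGATAA, the PU.1 motif GAGGAA and the NFAT motif TGGAAA:
Cd200r3, chr16:44943428-44943727, plus strand: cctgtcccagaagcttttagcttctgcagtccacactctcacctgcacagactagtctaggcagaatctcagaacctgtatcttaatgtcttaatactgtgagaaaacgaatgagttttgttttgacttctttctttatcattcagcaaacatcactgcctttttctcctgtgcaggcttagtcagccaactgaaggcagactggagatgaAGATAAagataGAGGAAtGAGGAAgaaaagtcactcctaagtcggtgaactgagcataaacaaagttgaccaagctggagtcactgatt
Cd200r4, chr16:44820478-44820777, plus strand: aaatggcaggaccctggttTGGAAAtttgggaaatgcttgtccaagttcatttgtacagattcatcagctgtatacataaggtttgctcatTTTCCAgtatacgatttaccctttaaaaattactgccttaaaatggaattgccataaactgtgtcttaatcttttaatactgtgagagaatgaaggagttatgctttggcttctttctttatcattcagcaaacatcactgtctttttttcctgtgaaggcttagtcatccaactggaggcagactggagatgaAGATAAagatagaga
Shifted by 74 bases against each other, the sequences matched at 155 of 226 positions (68.6%). Each held 1 AGATAA, which begins 39 bases before the start site in Cd200r3 and 35 bases after it in Cd200r4. Cd200r3 held 2 GAGGAA and Cd200r4 held 2 TGGAAA. Of 32851 RefSeq promoters of this length, 11.2% held AGATAA, 28.3% GAGGAA and 21.4% TGGAAA. The AP-1 motif TGANTCA, in 7.8% of promoters, occurred in neither. Such matches are letters in a window and say nothing about binding.

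The wider set of genes around these receptors gave further values. Of 25 listed relatives, 19 were in the table and 12 were tested. In WT, 4 of 12 rose and 1 fell at 2 h (17.8% and 17.3% of all genes), and 4 rose and 1 fell at 4 h (19.6% and 18.4%), with medians of 0.09 and 0.15 on the log2 scale. Cd300lb, an activating CD300 receptor, rose by 0.35 ± 0.05 and 0.55 ± 0.05, and Cd300ld by 0.33 ± 0.08 at 4 h. Both were higher in TTP-KO at 4 h, Cd300ld by 0.34 ± 0.07 and Cd300lb by 0.24 ± 0.05, whereas Cd300lf differed by -0.13 ± 0.10 there. Lilra6 rose by 0.52 ± 0.19 and 0.94 ± 0.18, from 7.48 ± 1.18 CPM in WT control (SD, n = 3). Pira2 was lower in TTP-KO at 4 h (-0.60 ± 0.17, edgeR adjusted p = 0.0320), at 10.4 ± 0.955 against 15.6 ± 2.81 CPM. Pira13 (-1.46 ± 0.43 at 2 h) and Cd300lg (-1.42 ± 0.50 at 4 h) also fell in WT. Both were low, at 2.67 ± 0.874 and 1.76 ± 0.713 CPM in WT control.

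Among 9 reported ligands of these receptors, 2 rose and none fell at 2 h in WT, and 1 rose and 2 fell at 4 h, near or below the shares of all genes called (17.8% and 17.3%, 19.6% and 18.4%). Itgav, a subunit of the integrin that binds Lilrb4a, rose by 0.49 ± 0.08 at 2 h, and Rtn4, the source of the Pirb ligand Nogo, by 0.14 ± 0.05. Fn1 (fibronectin, a reported ligand of the Lilrb4 receptors) rose by 0.61 ± 0.08 at 4 h in WT. Its genotype difference changed sign: -0.53 ± 0.08 in control, -0.36 ± 0.08 at 2 h and 0.34 ± 0.07 at 4 h, all called. Its 4 h interaction also passed (0.88 ± 0.11, edgeR adjusted p = 3.85e-05). Cd200, the ligand of Cd200r1, fell by 0.58 ± 0.17 at 4 h, from 12.5 ± 2.82 to 8.21 ± 0.246 CPM (SD, n = 3). H2-D1, an MHC class I gene, fell by 0.12 ± 0.04.

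Of 13 phosphatases, kinases and adaptors of inhibitory signalling, 5 rose and 4 fell at 2 h in WT (17.8% and 17.3% of all genes), and 4 rose and 3 fell at 4 h (19.6% and 18.4%). Ptpn6, the phosphatase recruited by inhibitory motifs, rose by 0.54 ± 0.06 and 0.53 ± 0.05. Dok2, the adaptor of Cd200r1, rose by 0.41 ± 0.07 and 0.83 ± 0.07, while Dok1 fell by 0.52 ± 0.09 and Csk, an inhibitory kinase, by 0.42 ± 0.06 at 2 h. The kinase Fgr rose by 0.74 ± 0.08 and the Ras regulator Rasa1 by 0.28 ± 0.08 at 4 h. Between genotypes only Fyn passed, at 2 h (-0.22 ± 0.06, edgeR adjusted p = 0.0382), and none of the 13 passed in control or at 4 h.

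Of 4 genes of the activating side, Fcer1g, the adaptor shared by the IgE receptor and Pira receptors, rose by 0.56 ± 0.04 at 2 h and 0.29 ± 0.04 at 4 h in WT. Tyrobp, the adaptor of Cd200r3 and Cd200r4, fell by 0.27 ± 0.08 at 4 h in WT, and the kinase Syk by 0.16 ± 0.04 and 0.31 ± 0.04. In TTP-KO, Tyrobp was at 2093 ± 75.8 CPM in control and 1998 ± 70.5 CPM at 4 h (SD, n = 3). None of the 4 genes passed between genotypes or in an interaction.

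Among 25 tested of 28 other inhibitory receptors, 9 rose and 5 fell at 2 h in WT and 10 rose and 5 fell at 4 h. Over all genes 17.8% and 17.3% were called at 2 h and 19.6% and 18.4% at 4 h, so the falls were near that share. Several changed more than any of the 8 receptors above. Havcr2 (Tim-3) went from 126 ± 5.62 to 567 ± 21.2 CPM at 2 h (SD, n = 3; log2 2.17 ± 0.05), and Siglecf rose by 1.79 ± 0.10 and Tigit by 1.36 ± 0.22. Ceacam1 rose by 1.21 ± 0.07 at 2 h and 1.81 ± 0.07 at 4 h, and Btla by 1.13 ± 0.29 at 4 h. These genes had the largest changes, and all of them rose. Other means were lower than in WT control. Milr1 went from 23.9 ± 1.95 to 12.6 ± 2.74 CPM and Fcgr2b from 456 ± 15.4 to 356 ± 11.3 at 2 h. Vsir went from 169 ± 9.77 to 94.5 ± 4.97 CPM at 4 h. Tigit and Btla were low, at 4.31 ± 1.04 and 2.57 ± 0.831 CPM in WT control, below all 8 receptors. Between genotypes, only Siglecg passed in control, lower in TTP-KO (-1.46 ± 0.35, at 3.83 ± 0.466 CPM in WT control). Of all genes, 1.24% were lower and 0.412% higher there. At 2 h, Cd72 (-0.50 ± 0.13) and Ceacam1 (-0.45 ± 0.07) were lower and Sirpa (0.22 ± 0.05) higher, beside 1.88% and 0.909%. At 4 h, 4 were lower and 1 higher in TTP-KO, beside 3.40% and 1.83%. There Tigit was lower than in WT by 0.99 ± 0.21, Havcr2 by 0.32 ± 0.05, Ceacam1 by 0.31 ± 0.06 and Cd244a by 0.22 ± 0.05. The Havcr2 and Ceacam1 differences were close in size to that of Lilrb4a at the same time (-0.38 ± 0.04), and the differences between these genes were not tested.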

How the data were processed

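There were 6 groups of 3 RNA-seq libraries. The authors deposited 1 table of estimated counts (expected counts, with decimals, not normalized) for 56413 genes. Per the submitters' processing notes, the tools were RSEM 1.3.1, STAR 2.7.10a, cutadapt 3.5, R 4.4.0 and R 4.4.1, the build was GRCm39, and their roles are not spelled out. The gene annotation and strandedness are not given in the sources used here. Columns named as unstimulated were matched to control OVA.

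Rounded counts went into edgeR 4.0.16 (R 4.3.3): filterByExpr (14076 genes kept, 99.8% of counts), TMM scaling and a robust quasi-likelihood fit with 6 group means, leaving 12 residual degrees of freedom. Adjusted p-values are Benjamini-Hochberg over all genes tested in each of 12 comparisons, with a threshold of 0.05. SE is the size of the log2 change over the root of F. An exact permutation test of 3 libraries against 3 cannot go below p = 0.1. Alternatives were RLE scaling, no filter, DESeq2 1.42.0, only the compared groups, a replicate block, Lilrb4a summed with Lilrb4b, and leaving out each library. A further alternative, added after seeing the data, was each receptor summed with genes sharing at least 5% of its 50-base windows.

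The receptors and gene lists were chosen with earlier results of these data known. Every receptor is named; from each list, up to 4 genes past the threshold with the largest change in WT antigen (2 h or 4 h) or genotype comparisons; and for each receptor the 2 genes most correlated with it among genes whose mean log2 CPM reached 2. No 2 libraries of a group were copies. The fit was tested on simulated counts.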

Additional observations from a re-analysis of the deposited data

How the results depend on the processing

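Of 2400 log2 fold changes recomputed for the 8 receptors, 2323 kept their direction and side of the threshold, 32 lost their call, 14 gained one and 31 changed sign. Many of these values had little room to change. In the comparisons other than interactions, most of the libraries left out belonged to groups not compared. Summing left the counts of most receptors as they were. The number of receptors called between genotypes in control fell from 2 to 1 with no filter on low counts and with only the compared groups, and was 1 to 2 when single libraries were left out. It was 1 to 2 (main 1) at 2 h between genotypes and 2 to 3 (main 3) at 4 h, 5 to 7 (main 7) for WT at 2 h, and 0 to 1 (main 0) for the interaction from 2 h to 4 h, which DESeq2 also put at 1. The sign changes were all of uncalled values, mostly near 0, but not for Cd300lf between genotypes at 4 h (-0.13, and 0.16 when summed). Outside the leave-one-out fits they were Cd300lf summed with near copies (0.08 between genotypes in control, 0.16 at 4 h, 0.08 for the 4 h interaction), Cd200r4 from 2 h to 4 h in WT with no filter (0.01), and Cd200r1 from 2 h to 4 h in TTP-KO under RLE scaling (-0.00) and DESeq2 (-0.01). The cause was not tested, except that summing adds the counts of Cd300ld.

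With single libraries left out, values spanned -0.04 to 0.10 for Cd300a and -0.15 to 0.09 for Cd300lf between genotypes in control, -0.07 to 0.00 for Pirb at 2 h in WT and -0.01 to 0.02 for Cd200r1 from 2 h to 4 h in TTP-KO. Interactions spanned 0.00 to 0.13 for Cd300a at 2 h. At 4 h they spanned -0.02 to 0.05 for Pirb, -0.02 to 0.11 for Cd300a, -0.22 to 0.02 for Cd300lf and -0.07 to 0.06 for Clec12a. From 2 h to 4 h they spanned -0.05 to 0.00 for Cd200r3 and -0.05 to 0.05 for Cd300a.

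Over all genes, calls between genotypes in control went from 232 to 399 with no filter and 149 with only the compared groups, and to 1130 from 735 at 4 h with the latter. Leaving out libraries gave 145 to 245 in control, 228 to 463 (main 393) at 2 h and 466 to 829 at 4 h. Interactions at 2 h (main 7) gave 55 with no filter, 22 in DESeq2, 11 with only the compared groups and 4 to 8 without single libraries. At 4 h (main 97) they gave 259, 176 and 46 to 133 with no filter, in DESeq2 and without single libraries, and from 2 h to 4 h (main 44) 134, 103 and 25 to 62.

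No pairing by replicate number was seen: deviations of same-numbered libraries correlated at -0.08 to 0.04 (45 pairs). Those of other-numbered libraries correlated at -0.07 to 0.10 (90 pairs). Such values do not show whether the samples were paired by mouse or culture. With the replicate block, 2, 1 and 3 receptors were called between genotypes in control, at 2 h and at 4 h, and the block changed 1 call of a receptor, Cd300a in TTP-KO at 2 h (adjusted p = 0.0474).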
